A study of Mus musculus with 2 samples.

Results

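The Tcf7 group of early NK regulators comprised 7 transcription factor genes, Tcf7, Lef1, Tox, Tox2, Myb, Bach2 and Foxo1, out of 32285 genes in the count table. They were chosen by symbol, and each symbol matched 1 gene. The cells came from spleens of wild-type mice, depleted of other blood lineages to leave untouched natural killer (NK) cells. They were profiled as 1 library with droplet-based 3′ single-cell RNA sequencing. All groups below are classes of cells within that library: there was no treatment and no other genotype, and the animals' age is not given in the sources used here. Cells of different mice were marked with lipid tags before pooling, and 3 tags were read. The labels do not tie a tag to a mouse, so no p-value below can be read as a spread between mice. Each p-value sets a class difference against variation over 3 tags of 1 library. That variation may be technical, and its estimate is largely shared over all genes. In the T cell-like comparison it is shared almost wholly, so a gene's own variation over the tags barely entered its p-value. A second sample of the same kind was not analysed here.

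TCF-1, the product of Tcf7, and LEF-1 are related HMG-box factors that bind the same DNA motif and take up beta-catenin when the Wnt pathway is active. TCF-1 and TOX are both needed for the early development of NK cells and of other innate lymphoid cells (ILCs), and MYB maintains blood progenitors. BACH2 is a repressor that holds lymphocytes in resting, memory-like states, and FOXO1 drives homing and quiescence genes when growth-factor signalling is low. Mouse NK cells mature in the spleen through stages read from 2 surface proteins. CD27, a TNF-receptor family member, marks the earlier cells, and CD11b, the integrin encoded by Itgam, marks the later ones.

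In the GRCm38 annotation Tcf7 (ENSMUSG00000000782) lies on the minus strand at chr11:52252371-52283014 and Myb (ENSMUSG00000019982) on the minus strand at chr10:21124935-21160984. Lef1 (ENSMUSG00000027985) lies at chr3:131110471-131224356 and Foxo1 (ENSMUSG00000044167) at chr3:52268336-52353221, both on the plus strand. Tox (ENSMUSG00000041272) occupies chr4:6686353-6991557 on the minus strand, Bach2 (ENSMUSG00000040270) chr4:32238804-32586108 on the plus strand, and Tox2 (ENSMUSG00000074607) chr2:163203125-163324170 on the plus strand. Tox2 overlapped no other annotated gene, and the other 6 each overlapped between 1 and 3. Whether reads were counted by strand is not given in the sources used here, so reads shared with an antisense partner cannot be told apart.

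The RefSeq table (GRCm38.p6) lists a transcription start for 6 of the 7 members, all but Tox. The 250 bases ahead of the most upstream listed start were searched on both strands for the letters CTTTGA (bound by TCF and LEF factors), TGTTTAC (FOXO), CAACNG (MYB) and TGTGGT (RUNX). A single match was found, CTTTGA on the minus strand of the Bach2 window, 93 bases ahead of the start. The Tcf7, Lef1, Myb, Tox2 and Foxo1 windows held none of the 4. The Tcf7 window holds an ATG, and no stop codon follows in its frame up to the window's end. It may thus be coding sequence, and whether it acts as a Tcf7 promoter was not tested. Over all 32851 windows of this length, 13.83% held CTTTGA, 3.17% TGTTTAC, 29.33% CAACNG and 14.05% TGTGGT. The Bach2 window (chr4:32417185-32417434, plus strand, inside the annotated gene) is shown for that match, in capitals. The Myb window (chr10:21160985-21161234, minus strand) is shown because NK-like cells with a Tcf7 UMI, pooled over maturation, held more Myb; which start the cells used was not measured.
Bach2: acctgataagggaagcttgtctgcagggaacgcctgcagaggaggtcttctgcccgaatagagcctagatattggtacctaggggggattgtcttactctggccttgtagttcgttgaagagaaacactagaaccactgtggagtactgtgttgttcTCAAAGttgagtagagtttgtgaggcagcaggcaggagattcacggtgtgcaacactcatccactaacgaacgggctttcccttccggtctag
Myb: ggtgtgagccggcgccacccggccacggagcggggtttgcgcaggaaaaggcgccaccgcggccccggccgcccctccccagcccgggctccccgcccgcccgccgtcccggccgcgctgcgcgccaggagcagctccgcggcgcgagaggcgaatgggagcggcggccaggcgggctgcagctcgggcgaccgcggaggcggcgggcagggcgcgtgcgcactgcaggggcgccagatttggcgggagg

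Of 16384 barcodes, 15742 passed filters of 500 to 6000 genes and at most 10% mitochondrial UMIs (unique molecular identifiers, each standing for 1 captured transcript). Of these 11696 carried 1 tag, with 3590, 4213 and 3893 cells and 18485480, 23091461 and 22465648 UMIs in tags 1, 2 and 3. Clusters were formed without the members and their partner genes, and 8644 cells were NK-like by a list of 10 NK markers. The summed level of these markers was 19435 to 20791 CPM (UMIs of a gene scaled to a common total of UMIs) over the tags. The same markers named the clusters, so their level is no separate check of the NK-like label. ILC1-like, T cell-like and progenitor-like cells (524, 168 and 149) also remained after the negative selection. Levels below are in CPM over the summed cells of a class and tag. Shares are of cells with at least 1 UMI after each cell was thinned at random to 2500 UMIs, which 7381 NK-like cells reached.

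Most NK-like cells carried a transcript of at least 1 member. After thinning, 12.7% of NK-like cells held none of the 7, 31.7% held 1, 32.4% held 2 and 23.2% held 3 or more, at most 6. Tcf7 was detected in 18.5% of them (exact 95% interval 17.7% to 19.4%; intervals and floors here cover counting error only). Erythroid-like cells, which should lack Tcf7, gave 1.62%, with median totals before thinning of 26124 UMIs against 4170 in NK-like cells. Lef1 was detected in 29.4% of NK-like cells and in 0.541% of erythroid-like cells, Tox in 42.5% and 4.32%, Bach2 in 57.0% and 7.57%, and Foxo1 in 20.1% and 5.95%. The erythroid-like class was not pure: 5 of its 10 leading genes were immunoglobulin or plasma cell genes, such as Jchain and Igkc, and a finer clustering split it into 158 erythroid-like and 46 plasma cell-like cells. Mural or fibroblast-like cells, which are not blood cells, gave 1.49% for Tcf7, 2.99% for Lef1, 7.46% for Tox, 17.9% for Bach2 and 28.4% for Foxo1. Myb, which erythroid precursors use, was detected in 5.20% of NK-like cells and in 0.746% of mural or fibroblast-like cells (median 8224.5 UMIs). The NK-like shares of Tcf7, Lef1, Tox and Bach2 were above both classes, that of Foxo1 above the erythroid-like class but not the mural or fibroblast-like one, and that of Myb above the mural or fibroblast-like class. Tox2 gave 8 UMIs in the 8644 NK-like cells, a level of 0.205 CPM, and is therefore described only where another class held more.

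The members were not spread alike over the NK-like clusters. In these descriptions the clusters are given by cell number and no test is made. Tcf7 stood at 166 CPM in a cluster of 1075 cells and at 16.6 CPM in one of 1040 cells, where 3.70% of thinned cells held it. In the same 2 clusters Myb stood at 57.7 and 7.91 CPM and Tox at 587 and 161 CPM. Lef1 stood at 150 and 166 CPM and Bach2 at 501 and 373 CPM there. The cluster low in Tcf7 was thus also low in Myb and Tox, while its Lef1 was at the level of the Tcf7-high cluster.

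Maturation was compared between Cd27-only cells (926), Cd27 and Itgam double-positive cells (450) and Itgam-only cells (2542), each defined by thinned UMIs of the 2 genes. The largest group, 3463 cells with a UMI of neither gene, was not compared. With unthinned counts over all NK-like cells 1229 were double-positive, so cells of the 2 single-gene classes can carry both transcripts. Cd27-only cells carried more Tcf7, Tox and Myb than Itgam-only cells, and Lef1, Bach2 and Foxo1 did not pass the test. Tcf7 had 164.5, 135.0 and 173.0 CPM in Cd27-only cells of tags 1, 2 and 3, against 71.01, 62.65 and 72.82 CPM in Itgam-only cells. The lowest Cd27-only value was well above the highest Itgam-only value. The fitted log2 fold change was 1.25 ± 0.08 (SE), a 2.37-fold higher level, with an edgeR adjusted p of 2.71e-18. Thinned shares went the same way, 27.9% of Cd27-only cells and 13.1% of Itgam-only cells. Double-positive cells lay between, at 119.7, 105.0 and 116.3 CPM, or 22.4% of cells. Tcf7 in double-positive cells was higher than in Itgam-only cells by 0.74 ± 0.12 (log2, adjusted p = 1.89e-05). Cd27-only cells exceeded double-positive cells by 0.50 ± 0.10 (adjusted p = 0.00213). In both comparisons the tags of the 2 classes did not overlap. The first of these calls was lost without tag 1 (0.73, adjusted p = 0.0612) and the second without tag 3 (0.46, adjusted p = 0.0564).

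**Figure D1:**
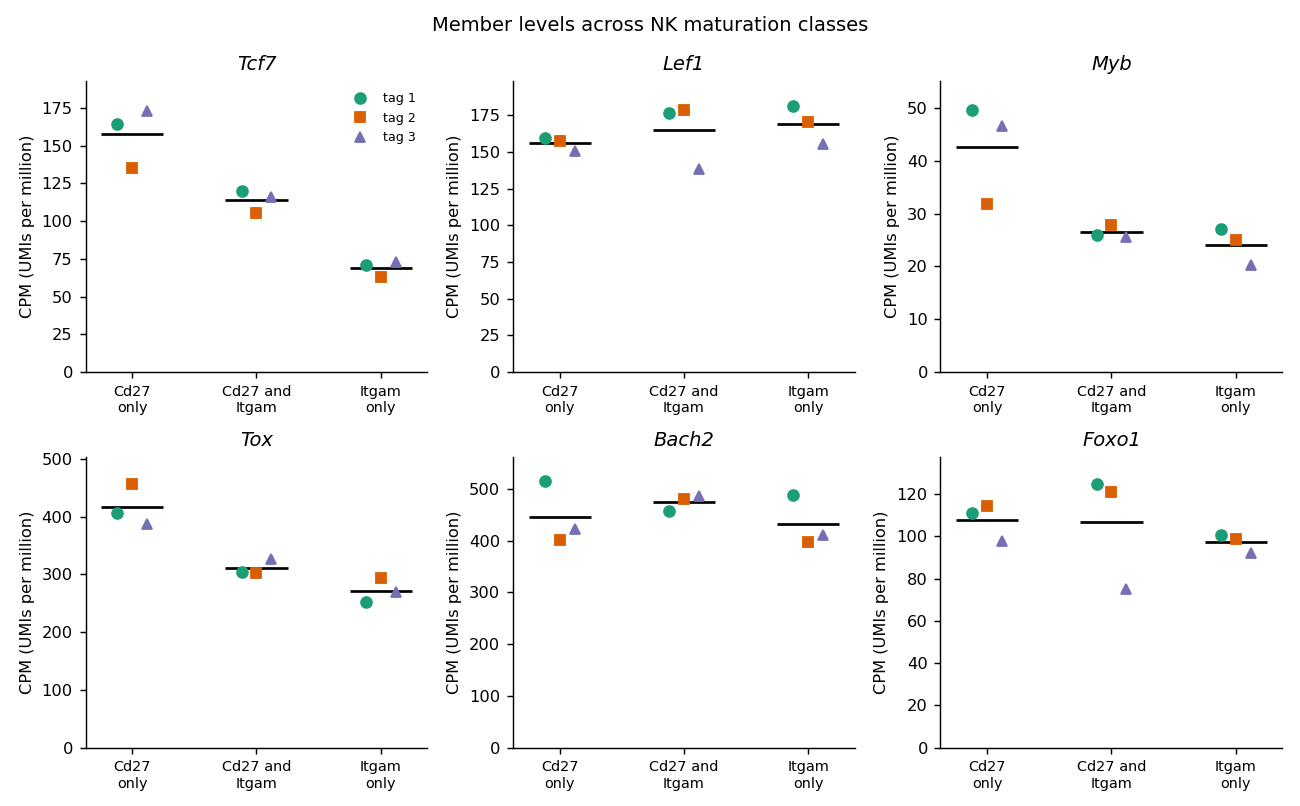
CPM (vertical axis) of 6 members in NK-like cells by Cd27 and Itgam class (horizontal axis); each symbol is 1 lipid tag and the bar the mean of 3. Tcf7 steps down over the 3 classes, from a mean of 157.5 over 113.7 to 68.8 CPM, while Lef1 and Bach2 overlap in all 3. Cells with neither gene are not shown.

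Tox, a second HMG-box factor of early NK development, had 406.5, 456.3 and 387.5 CPM in Cd27-only cells, against 252.3, 294.0 and 268.7 CPM in Itgam-only cells. These ranges did not overlap, and the log2 fold change was 0.68 ± 0.05 (edgeR adjusted p = 1.60e-15). Cd27-only cells exceeded double-positive cells (304.5, 301.7 and 326.5 CPM) by 0.48 ± 0.07 (adjusted p = 3.19e-05). Double-positive cells differed from Itgam-only cells by 0.20 ± 0.07 (adjusted p = 0.106), which did not pass the threshold of 0.05. Whether Tox and Tcf7 differ in their steps was not tested.

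Myb, the progenitor factor, had 49.57, 31.84 and 46.66 CPM in Cd27-only cells, against 27.01, 24.97 and 20.36 CPM in Itgam-only cells. All 3 Cd27-only tags were above all Itgam-only tags, with a log2 fold change of 0.85 ± 0.15 (edgeR adjusted p = 1.45e-05). Double-positive cells had 26.02, 27.94 and 25.49 CPM, within or just above the Itgam-only range, with a log2 difference of 0.15 ± 0.21 from it (adjusted p = 0.878). Cd27-only exceeded double-positive cells by 0.69 ± 0.20, with an adjusted p of 0.0603, which became 0.0178 without tag 2 (log2 0.95).

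Lef1, the partner of Tcf7 in the TCF/LEF family, had 159.8, 157.3 and 151.0 CPM in Cd27-only cells, against 181.6, 170.1 and 155.2 CPM in Itgam-only cells. The ranges of the classes overlapped, although Lef1 was lower in Cd27-only cells within each tag. The log2 difference was -0.06 ± 0.07 (adjusted p = 0.670). Bach2 differed by 0.10 ± 0.05 (adjusted p = 0.172) and Foxo1 by 0.21 ± 0.08 (adjusted p = 0.0719). Both were higher in Cd27-only cells within all 3 tags. With another random thinning, tried after seeing the data, both passed, at 0.18 (adjusted p = 0.0114) and 0.26 (adjusted p = 0.0292). Tox2 had no UMI in the Cd27-only class, which allows up to 0.324% of these cells to show a UMI and sets no limit on how many express the gene.

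Thus 3 of 6 tested members rose in Cd27-only over Itgam-only cells and none fell, where 7.92% of 10042 genes rose and 5.26% fell. Either way 13.2% of genes changed. With library totals in place of TMM scaling the balance over all genes turned, with 637 higher and 854 lower against 795 and 528, while the same number of members rose (3) and none fell. Summed NK markers stood at 14736 to 16834 CPM over the tags in Cd27-only cells and at 23092 to 24634 CPM in Itgam-only cells. Progenitor markers stood at 151 to 163 CPM in Cd27-only cells (3 of 8 at 0) and at 101 to 127 CPM in Itgam-only cells (1 of 8 at 0). The part of either in these results was not tested. In double-positive over Itgam-only cells 1 of 6 rose, where 2.14% of 9533 genes rose, 0.986% fell and 3.13% changed either way. In Cd27-only over double-positive cells 2 of 6 rose, where 2.27% of 8497 genes rose, 0.647% fell and 2.92% changed either way; there library totals gave 165 higher and 91 lower, against 193 and 55. The comparisons share classes and are not independent. The members and lists, here and below, were chosen with earlier results of these data known. Their counts beside the shares of all genes are therefore descriptions and no test of the lists. Of the 14 listed genes of TCF1-positive lymphocytes, 10 were tested, and 9 rose in Cd27-only over Itgam-only cells. The list median was 1.25 against -0.00325 for all genes (log2). Among them were Slamf6 (47.37 against 11.91 CPM), a surface receptor of TCF1-positive T cells, and Ltb (191.1 against 58.88 CPM), which encodes lymphotoxin beta. Il7r, the interleukin 7 receptor, had 54.53 CPM in Cd27-only and 19.87 CPM in Itgam-only cells. Of the 8 late NK factors 7 fell, including Zeb2 (519.5 against 1128 CPM) and Prdm1 (50.30 against 84.09 CPM), 2 factors of terminal maturation. The 20 tested TCF/LEF cofactors and Wnt pathway genes gave 1 higher, the receptor-degrading ligase gene Rnf43 (70.82 against 53.73 CPM), and 2 lower, Lrp6 and Ccnd3. Of the 11 tested genes regulated by FOXO1, 2 rose and 2 fell, and of the 6 tested paralogs 1 fell, Foxn3.

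The split by Tcf7 itself asked which members were higher in the summed NK-like cells that held a Tcf7 UMI. Cells of unlike maturation are pooled on both sides, and the split was not tested within a maturation class. NK-like cells with a Tcf7 UMI after thinning (1368) carried more Myb, Tox and Foxo1 than those without (6013). Myb had 47.14, 44.51 and 46.59 CPM in Tcf7-positive cells, against 25.01, 25.03 and 28.99 CPM in Tcf7-negative cells. The classes did not overlap, and the log2 fold change was 0.83 ± 0.10 (edgeR adjusted p = 2.98e-06). Tox had 490.1, 494.9 and 427.2 CPM in Tcf7-positive cells, against 300.9, 339.3 and 298.9 CPM in Tcf7-negative cells. This too was without overlap, at 0.61 ± 0.04 (adjusted p = 1.08e-10). Foxo1 rose by 0.22 ± 0.06 (adjusted p = 0.0287). That call was lost with DESeq2 (adjusted p = 0.505), without the tag as a block (0.404) and without any 1 tag (0.0654 to 0.178).

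Lef1 and Bach2 did not pass in this split, at 0.12 ± 0.05 (adjusted p = 0.251) and 0.12 ± 0.04 (adjusted p = 0.154). Bach2 passed at 0.19 with another random thinning (adjusted p = 2.91e-04) and at 0.17 without tag 3 (adjusted p = 0.00681). Hence 3 of the 5 tested members other than Tcf7 rose, where 3.42% of 11275 genes rose and 1.72% fell (5.14% either way). Of the 12 tested genes of TCF1-positive lymphocytes 9 rose, among them Kit (63.11 against 30.27 CPM), the stem cell factor receptor, and Slamf6 (43.89 against 19.52 CPM). Of the 8 late NK factors 5 fell, among them Irf8 (249.0 against 369.9 CPM). Median totals were 4761.5 UMIs in Tcf7-positive and 4046 UMIs in Tcf7-negative cells. Summed NK markers were at 14954 to 16670 CPM in Tcf7-positive and 20362 to 21819 CPM in Tcf7-negative cells, and progenitor markers at 161 to 206 CPM in Tcf7-positive cells (1 of 8 at 0) and 121 to 143 CPM in Tcf7-negative cells (none at 0). The part of these in the results was not tested.

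Co-detection in the same thinned cells was set against the number expected if the 2 genes fell independently. Expected counts are given over all tags pooled, whereas each ratio is the mean of 3 ratios taken within a tag. The ratios therefore need not equal the counts beside them divided. Tcf7 and Myb met in 107 NK-like cells where 71.2 were expected, a ratio of 1.499 ± 0.11 (SD over 3 tags; 1.59, 1.52 and 1.38). Put as shares, 27.9% of Myb-positive and 18.0% of Myb-negative NK-like cells held Tcf7. Tcf7 and Tox met in 691 cells where 582 were expected, a ratio of 1.19 ± 0.05. Myb with Foxo1 gave 1.21 ± 0.17, Myb with Tox 1.15 ± 0.03 and Tcf7 with Foxo1 1.12 ± 0.01. Tcf7 and Lef1, the 2 members of one family, gave 1.04 ± 0.02, and Lef1 gave 0.98 ± 0.04 with Tox and 0.99 ± 0.01 with Foxo1. Judged by the lowest of the 3 tags, the pairs of Tcf7 with Myb and with Tox stood furthest above 1; Myb with Foxo1 had a higher mean than Tcf7 with Tox but 1.02 in tag 3. These ratios are descriptions without a test, and cells of unlike maturation are pooled in them. Split by maturation at 2500 UMIs, Tcf7 with Myb was below 1 in Cd27-only cells (16 cells, 18.1 expected, ratio 0.857 ± 0.27) and double-positive cells (3 cells, 4.04 expected, 0.809 ± 0.31). It was above 1 in Itgam-only cells (27 cells, 14.9 expected, 1.83 ± 0.42) and in cells with neither gene (61 cells, 36.5 expected, 1.66 ± 0.21). In cells thinned to 4000 UMIs, which fewer cells reached, the same ratio was 1.27 ± 0.15 in Cd27-only (49 cells) and 1.196 ± 0.16 in double-positive cells (11 cells). It was 1.27 ± 0.58 in Itgam-only cells and 1.37 ± 0.11 in cells with neither. The Cd27-only and double-positive ratios thus changed side with depth, and Itgam-only cells had 1 tag below 1 at 4000 UMIs.

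**Figure D2:**
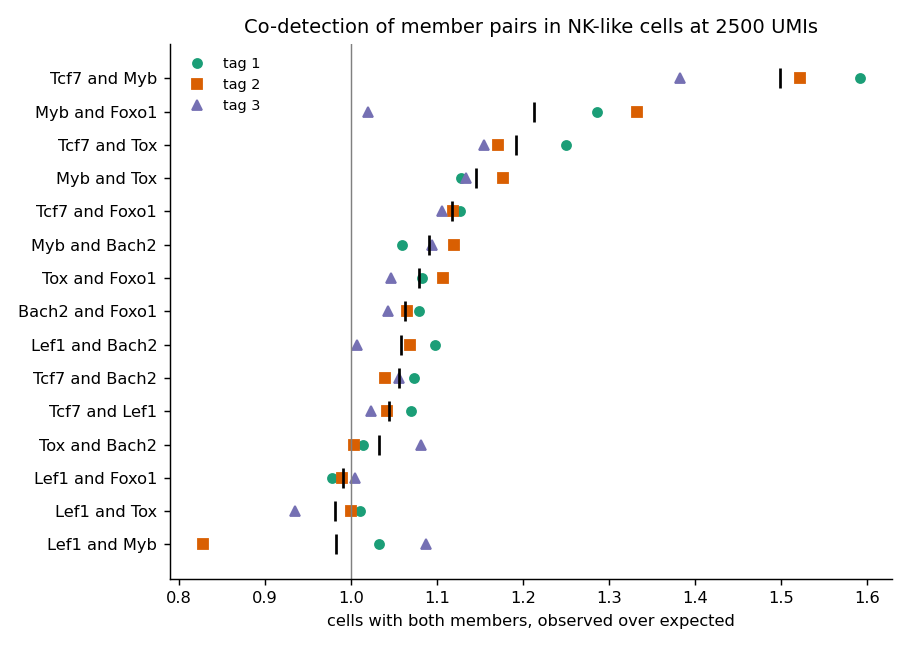
Ratio of NK-like cells that held both members to the number expected under independence (horizontal axis) for the 15 pairs without Tox2 (vertical axis), at 2500 UMIs a cell; symbols are the 3 lipid tags, bars their mean. Tcf7 with Myb stands at 1.499 and Lef1 with Tox at 0.98.

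Across 18 profiles (6 NK classes by 3 tags, which share 1 library) the genes most like Tcf7 were named by Pearson correlation of log2(CPM + 5) over 6252 genes of at least 20 CPM. They were Rps21 (r = 0.95), Ltb (0.93), Xcl1 (0.92), Kit (0.92), Rpl38 (0.92), Trbc1 (0.92), Rpl27 (0.91), Jdp2 (0.91), Rps23 (0.90) and 1810041H14Rik (0.90). Ribosomal protein genes, the cytokine genes Ltb and Xcl1, the receptor kinase gene Kit and a T cell receptor constant segment were among them. Among the members Tox followed Tcf7 most closely (r = 0.85). Lef1 followed Bach2 (0.74) and ran against Tox (-0.71) over the same profiles, and r was -0.40 between Tcf7 and Lef1.

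Cycling NK-like cells (118, with at least 3 UMIs of 10 cell-cycle genes) carried less Bach2 and Lef1, relative to all UMIs, than non-cycling ones (6720, with none). Bach2 had 231.9, 133.8 and 272.6 CPM in cycling cells, against 487.2, 413.7 and 431.1 CPM in non-cycling cells. Lef1 had 76.62, 84.27 and 82.73 CPM in cycling cells, against 172.2, 156.4 and 152.4 CPM in non-cycling cells. Both were lower in cycling cells in all 3 tags without overlap. The log2 fold changes were -0.91 ± 0.12 for Bach2 (edgeR adjusted p = 3.39e-07) and -0.80 ± 0.13 for Lef1 (adjusted p = 1.77e-05).

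Tox had 528.3, 327.2 and 438.1 CPM in cycling cells, against 327.1, 361.9 and 318.1 CPM in non-cycling cells. It was higher in 2 of 3 tags, at 0.52 ± 0.11 (adjusted p = 3.76e-04). This became 0.32 without tag 1 (adjusted p = 0.0282), and 0.20 when all clusters scored as NK were used (adjusted p = 0.187). Tcf7 overlapped between the classes, with 129.0, 64.44 and 110.9 CPM in cycling cells, against 105.0, 91.53 and 121.7 CPM in non-cycling cells. Its log2 difference was 0.09 ± 0.15 (adjusted p = 0.703). Myb was at 0.52 ± 0.23 (adjusted p = 0.0806) and Foxo1 at 0.34 ± 0.14 (adjusted p = 0.0611), neither past the threshold. Without tag 1 Myb passed (0.75, adjusted p = 0.0194) and without tag 2 Foxo1 passed (0.55, adjusted p = 0.00799).

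In all, 1 of 6 tested members rose and 2 fell in cycling cells, where 19.1% of 11058 genes rose and 14.9% fell (34% either way), so such calls were frequent among all genes. Median totals were 13904.5 UMIs in cycling and 4112.5 UMIs in non-cycling cells, and a CPM does not give transcripts per cell. ILC1 markers summed to 268 to 298 CPM in cycling and 112 to 150 CPM in non-cycling cells (none of 8 at 0 in either), and NK markers to 11689 to 16647 CPM in cycling and 19681 to 21257 CPM in non-cycling cells; their part was not tested. With library totals in place of TMM scaling the median of all genes moved to -0.226, against -0.0517 (log2), and 1684 genes rose and 2632 fell, against 2112 and 1645. The MYB paralogs Mybl1 (21.51 against 1.657 CPM) and Mybl2 (24.20 against 1.023 CPM) rose, and 7 of 8 late NK factors fell.

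NK cells with a UMI of Cd3d or Cd3g, signalling chains of the T cell receptor that immature NK cells can also transcribe, were set against NK cells with neither (398 and 7379, over all clusters scored as NK). The positive cells carried more Tcf7 and Tox and less Lef1. Tcf7 had 247.1, 245.7 and 209.0 CPM in positive cells, against 111.3, 95.50 and 121.1 CPM in negative cells. Tox had 925.2, 886.6 and 814.3 CPM in positive cells, against 383.0, 418.0 and 370.6 CPM in negative cells. Neither gene overlapped between the classes. The log2 fold changes were 1.17 ± 0.09 for Tcf7 (edgeR adjusted p = 8.05e-14) and 1.22 ± 0.05 for Tox (adjusted p = 1.19e-22).

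Lef1 had 69.48, 102.0 and 90.86 CPM in positive cells, against 167.1, 148.1 and 145.4 CPM in negative cells, a log2 fold change of -0.73 ± 0.11 (adjusted p = 1.37e-06). Bach2 fell by 0.23 ± 0.06 on the log2 scale (adjusted p = 0.00833) and Foxo1 rose by 0.28 ± 0.09 (adjusted p = 0.0473). The Foxo1 call was lost without any 1 tag (adjusted p 0.119 to 0.216), and the Bach2 call without tag 1 (0.190) or tag 3 (0.168). Myb was at 0.00 ± 0.18 (adjusted p = 0.998). Of the positive cells 46.0% belonged to a single cluster that Cd3d and Cd3g themselves led and that stayed unnamed. Within the NK-like clusters alone (215 and 7166 cells) Tcf7 was at 0.79 (adjusted p = 3.21e-07) and Tox 0.42 (adjusted p = 8.03e-04). There Lef1 was at -0.10 (adjusted p = 0.882), Bach2 at -0.02 (0.972) and Foxo1 at 0.25 (0.534). The calls of lower Lef1 and Bach2 were thus not made without that cluster, where Lef1 stood at 36.9 CPM, Tcf7 at 269 CPM and Tox at 1409 CPM.

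Of 6 tested members 3 rose and 2 fell, where 6.37% of 11414 genes rose and 4.75% fell (11.1% either way). With library totals in place of TMM scaling the balance turned, with 630 genes higher and 809 lower against 727 and 542, and 2 members rose, the Foxo1 call being lost (0.22, adjusted p = 0.131). The other 8 T cell markers summed to 7.72 to 42.0 CPM over the tags in positive cells and to 8.41 to 10.997 CPM in negative cells, with 1 of 8 at 0 in each. T cell-like cells had 2002 to 2092 CPM of them. Cd3e, 1 of these 8, stood at 2.98 CPM in positive cells and at 444 CPM in T cell-like cells. By tag, the 8 markers summed to 7.72, 11.7 and 42.0 CPM in positive cells of tags 1, 2 and 3. In negative cells they summed to 10.997, 9.38 and 8.41 CPM, so positive cells were higher in tags 2 and 3 and lower in tag 1. Other lists differed without overlap. NK markers summed to 11483 to 11809 CPM in positive and 18903 to 20529 CPM in negative cells, and ILC1 markers to 203 to 316 CPM in positive and 123 to 164 CPM in negative cells. Progenitor markers summed to 240 to 279 CPM in positive cells (3 of 8 at 0) and 136 to 167 CPM in negative cells (none at 0). The part of these lists in the results was not tested. Of the 12 tested genes of TCF1-positive lymphocytes 10 rose, among them Id3 (27.77 against 4.960 CPM), an inhibitor of E proteins, and 1 fell; 1 of 8 late NK factors rose and 5 fell.

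**Figure D3:**
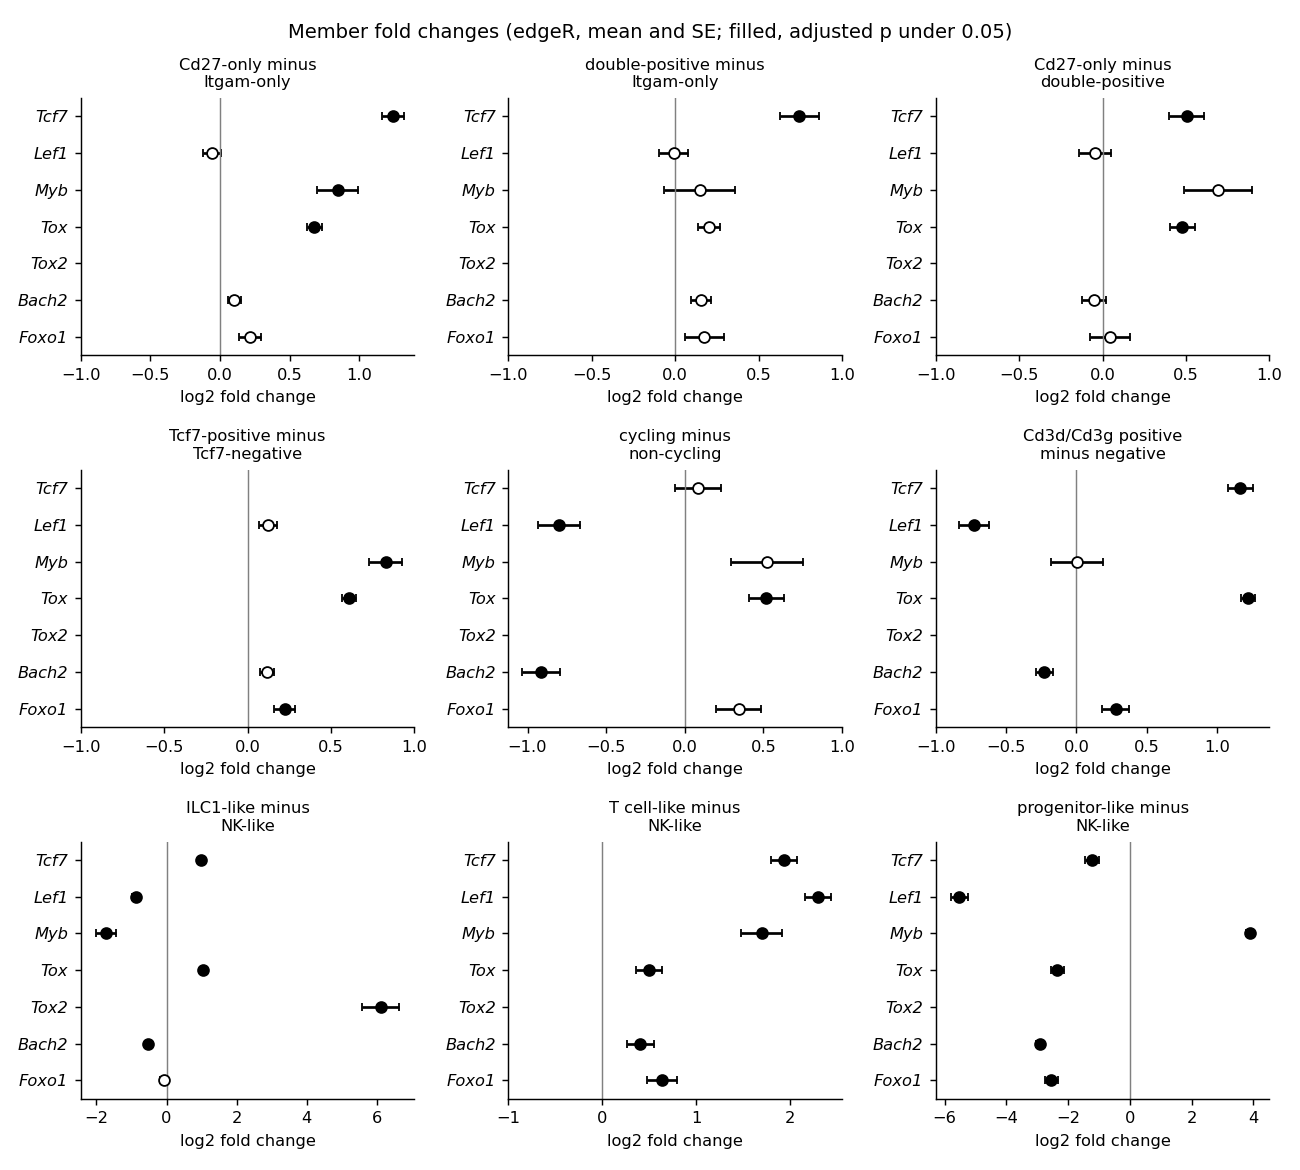
Log2 fold change with its SE (horizontal axis) of each member (vertical axis) in 9 comparisons of cell classes; filled symbols passed an edgeR adjusted p of 0.05, and members without a symbol were not tested. Tcf7 and Tox lie right of 0 together in the Cd27, Cd3 and ILC1-like comparisons, and Myb stands apart in progenitor-like cells at 3.90.

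ILC1-like cells (524), helper-type relatives of NK cells, carried more Tcf7, Tox and Tox2 than NK-like cells, and less Lef1, Bach2 and Myb. Most Tox2 UMIs of the class lay in a smaller cluster of 83 cells, led by genes that include Il23r and Cd4. The ILC1-like name is uncertain for that cluster. Members took no part in the clustering that defined the classes, but other genes of the same cells did. Tcf7 had 224.5, 208.0 and 182.2 CPM in ILC1-like cells, against 103.8, 90.24 and 117.2 CPM in NK-like cells. Tox had 648.9, 756.4 and 712.8 CPM in ILC1-like cells, against 347.4, 375.2 and 328.6 CPM in NK-like cells. No tag overlapped, with log2 fold changes of 0.99 ± 0.10 for Tcf7 (edgeR adjusted p = 2.51e-08) and 1.03 ± 0.06 for Tox (adjusted p = 8.19e-12).

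Tox2, a TOX relative known from follicular helper and exhausted T cells, had 12.24, 23.97 and 9.192 CPM in ILC1-like cells, against 0.163, 0.193 and 0.268 CPM in NK-like cells. These were 45 UMIs in ILC1-like and 8 UMIs in NK-like cells, with a log2 fold change of 6.11 ± 0.53 (adjusted p = 3.17e-09). Tox2 passed the filter on low counts only through its level in ILC1-like cells. Its direction was therefore set by the filter, and the p-value lends it no weight. The ILC1-like class joined 2 clusters. Tox2 stood at 60.3 CPM in the smaller one (83 cells, 28 UMIs, 24.1% of cells unthinned) and at 6.77 CPM in the larger one (441 cells, 17 UMIs). The smaller cluster was led by genes that include Il23r and Cd4, markers of other ILCs and of T cells. Its T cell markers other than Cd3d and Cd3g, a sum that includes Cd4, stood at 249 to 349 CPM with 6 of 8 at 0. Cd3e was at 0 in the whole ILC1-like class.

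Lef1 had 96.58, 102.6 and 64.34 CPM in ILC1-like cells, against 176.0, 158.2 and 150.8 CPM in NK-like cells (log2 -0.88 ± 0.11, adjusted p = 5.97e-07). Bach2 had 346.9, 293.4 and 279.1 CPM in ILC1-like cells, against 484.3, 415.2 and 429.8 CPM in NK-like cells (-0.52 ± 0.07, adjusted p = 2.07e-06). Myb had 10.88, 14.38 and 3.342 CPM in ILC1-like cells, against 30.60, 28.82 and 32.38 CPM in NK-like cells (-1.73 ± 0.28, adjusted p = 3.44e-05). All 3 were lower in every tag without overlap. The thinned Myb share of 2.38% in ILC1-like cells has an exact interval of 1.23% to 4.11%, and that of mural or fibroblast-like cells, at 0.746%, reaches 0.0189% to 4.09%, so Myb there was not told from background. Foxo1 differed by -0.08 ± 0.10 (adjusted p = 0.590), and in the smaller cluster alone by -1.14 (adjusted p = 7.00e-04).

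Apart, the 2 clusters gave Bach2 differences from NK-like cells of -0.35 (441 cells) and -2.16 (83 cells), and Tcf7 differences of 0.81 and 1.58. Tox was at 0.34 in the smaller cluster (adjusted p = 0.0568). Of 7 tested members 3 rose and 3 fell, where 14.7% of 11763 genes rose and 13.2% fell (28% either way). The 3 that rose include Tox2, which entered the test only through its level in this class. Among the 21 tested TCF/LEF cofactors and Wnt pathway genes 4 rose and 7 fell. Axin2 (13.76 against 4.709 CPM), a feedback target of the pathway, and its co-receptor Lrp5 (12.29 against 1.032 CPM) were higher, and Lrp6 (42.21 against 71.87 CPM) was lower. Il7r, the receptor that ILCs depend on, had 1148 CPM in ILC1-like and 37.31 CPM in NK-like cells, but belongs to the markers that name this class.

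T cell-like cells (168) carried more of all 6 tested members than NK-like cells. Lef1 had 853.8, 591.0 and 686.4 CPM in T cell-like cells, against 176.0, 158.2 and 150.8 CPM in NK-like cells. Tcf7 had 374.2, 434.1 and 296.7 CPM in T cell-like cells, against 103.8, 90.24 and 117.2 CPM in NK-like cells. Neither overlapped, with log2 fold changes of 2.29 ± 0.14 for Lef1 (edgeR adjusted p = 1.76e-60) and 1.93 ± 0.14 for Tcf7 (adjusted p = 2.95e-42). The size of these p-values rests on a variation shared over all genes, and 3 tags alone could not give it. Foxo1 rose by 0.63 ± 0.16, Tox by 0.49 ± 0.14 and Bach2 by 0.40 ± 0.14, with adjusted p of 8.18e-04, 0.00305 and 0.0221. These 3 calls were lost without tag 3, which held 95 of the 168 cells (adjusted p 0.302, 0.331 and 0.518), and those of Tox and Bach2 also without tag 1 (0.104 and 0.228). Lef1 was thus raised in T cell-like cells and lowered in ILC1-like cells relative to NK-like cells, whereas Tcf7 was raised in both.

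Myb had 87.20, 167.4 and 54.52 CPM in T cell-like cells, against 30.60, 28.82 and 32.38 CPM in NK-like cells, a log2 fold change of 1.70 ± 0.22 (adjusted p = 2.21e-13). This rested on few cells. Both other clusterings tried (a finer resolution, and the members kept among the clustering genes) moved the same 13 cells to the progenitor-like class, and Myb was then at -0.05 and -0.03. These 13 cells, described after their values were seen, held Myb at 606 CPM, and the other 155 T cell-like cells held it at 26.4 CPM. The 13 also held Tcf7 at 776 CPM and Tox at 852 CPM, against 294 and 396 CPM in the 155, while Lef1 was at 341 CPM in the 13 and at 752 CPM in the 155. Dntt and Rag1, which act in antigen receptor gene rearrangement, stood at 1392 and 256 CPM in the 13 cells and at 4.06 and 0 CPM in the 155. Trac, the alpha chain constant segment, stood at 9.47 CPM in the 13 cells and at 387 CPM in the 155, and Cd3e at 104 CPM in the 13 and 480 CPM in the 155. Bcl11b, a T lineage factor, was higher in the 13 cells (1240 against 336 CPM), as was Trbc1 (2661 against 704 CPM), and Cd3g was at 511 against 636 CPM. The progenitor markers Cd34 and Kit stood at 0 and 47.3 CPM in the 13 cells and at 0 and 3.05 CPM in the 155. The 13 cells came from all tags (2, 5 and 6).

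All 6 of 6 tested members rose in T cell-like cells before this change and 5 of 6 after it, where 9.53% of 11487 genes rose and 10.6% fell (20.1% either way) in the first comparison. With library totals the median of all genes moved to -0.244, against -0.0708, and 876 genes rose and 1862 fell, against 1095 and 1218; DESeq2 gave 961 and 585. Of the 14 genes of TCF1-positive lymphocytes 10 rose and 3 fell. Among those that rose were Dapl1 (301.7 against 0.535 CPM), Ccr7 (117.0 against 2.880 CPM), a lymph node homing receptor, and Il7r (583.6 against 37.31 CPM). Of 12 tested genes regulated by FOXO1 5 rose and 4 fell, with S1pr1, an exit receptor, at 191.1 against 50.98 CPM. All 8 late NK factors fell.

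Progenitor-like cells (149) carried more Myb than NK-like cells and less of the other 5 tested members. Myb had 423.4, 613.4 and 379.6 CPM in progenitor-like cells, against 30.60, 28.82 and 32.38 CPM in NK-like cells. The log2 fold change was 3.90 ± 0.13 (edgeR adjusted p = 1.23e-17), and 49.7% of thinned progenitor-like cells held Myb against 5.20% of NK-like cells. Lef1 gave 7 UMIs in all, or 1.628, 3.059 and 5.687 CPM in progenitor-like cells, against 176.0, 158.2 and 150.8 CPM in NK-like cells (-5.52 ± 0.27, adjusted p = 1.27e-14). Lef1 and Myb therefore stood at opposite ends between these classes, with no tag overlapping in either gene. Bach2 fell by 2.90 ± 0.13, Foxo1 by 2.55 ± 0.21 and Tox by 2.35 ± 0.20 on the log2 scale.

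Tcf7 had 91.19, 26.00 and 24.17 CPM in progenitor-like cells, against 103.8, 90.24 and 117.2 CPM in NK-like cells, where tag 1 of the progenitor-like class reached the NK-like range. Its log2 fold change was -1.22 ± 0.24 (adjusted p = 1.27e-04), and -2.10 without tag 1. The transcripts sat in few cells: 6 cells held 85 of the 90 Tcf7 UMIs, and 1 cell of tag 1 held 47. The other 143 cells stood at 2.65 CPM. The 6 cells, picked by their Tcf7, carried Il7r at 703 CPM and Tox at 484 CPM, against 3.71 and 51.5 CPM in the 143. They had no Lef1 UMI, and their Myb, at 438 CPM, was near the 472 CPM of the 143. With the 13 cells above in the class, the Tcf7 difference from NK-like cells was -0.35 and -0.33 (adjusted p = 0.0944 and 0.0902).

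Of 6 tested members 1 rose and 5 fell, where 26.6% of 11963 genes rose and 28.1% fell (54.7% either way), so most genes tested differed between these classes. Median totals were 12238 UMIs in progenitor-like and 3838.5 UMIs in NK-like cells. The MYB and BACH paralogs Mybl2 (6.511 against 2.213 CPM) and Bach1 (48.51 against 27.50 CPM) rose, and so did Tcf7l2 (36.72 against 0.562 CPM), another TCF family gene. All 8 late NK factors fell, and of the 24 tested TCF/LEF cofactors and Wnt pathway genes 6 rose and 14 fell.

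**Figure D4:**
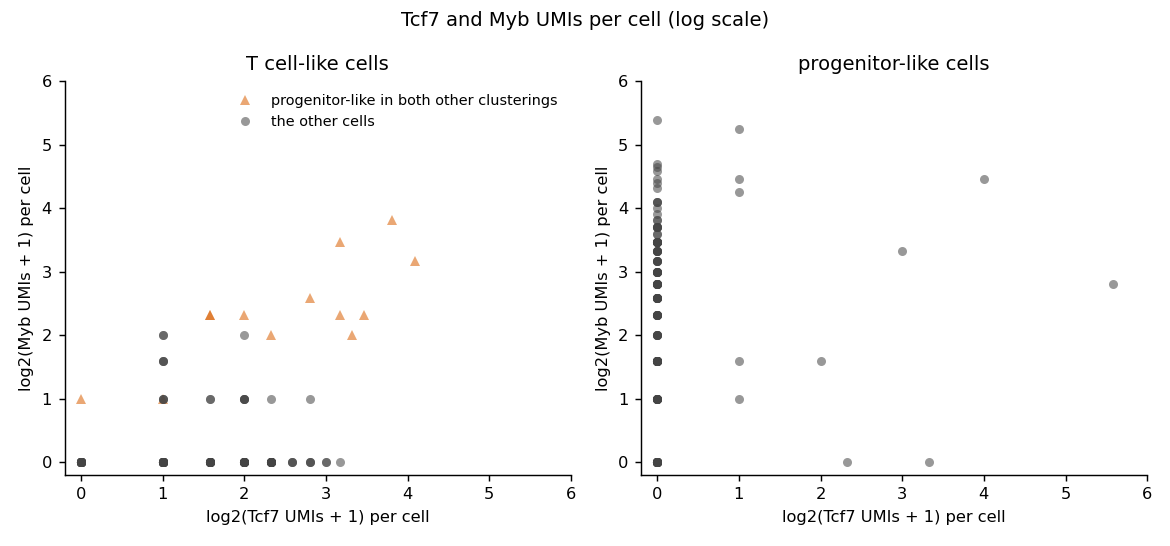
Tcf7 (horizontal axis) and Myb (vertical axis) UMIs of single cells as log2(UMIs + 1), in T cell-like cells (left) and progenitor-like cells (right); triangles are the 13 cells that both other clusterings placed among progenitor-like cells. In the progenitor-like class 6 cells lie at 2 or more Tcf7 UMIs, up to 47.

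Over 7 cell classes, each member had its own order of levels, described here without a test. Tcf7 stood at 368 ± 69 CPM in T cell-like, 205 ± 21 in ILC1-like and 104 ± 13 in NK-like cells (mean ± SD, 3 tags). It stood at 47.1 ± 38.2 CPM in progenitor-like, 45.1 ± 6.7 in conventional dendritic cell (cDC)-like, 21.4 ± 12.8 in B cell-like and 3.94 ± 1.47 in erythroid-like cells. T cell-like, ILC1-like and NK-like cells did not overlap, while progenitor-like cells overlapped the NK-like, cDC-like and B cell-like ones.

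Lef1 stood at 710 ± 133 CPM in T cell-like, 162 ± 13 in NK-like, 87.8 ± 20.6 in ILC1-like and 30.1 ± 4.9 in B cell-like cells, and at most at 8.77 ± 4.61 in the other 3 classes. Myb stood at 472 ± 124 CPM in progenitor-like and 301 ± 83 in erythroid-like cells, which overlapped, then at 103 ± 58 in T cell-like cells. That level rested on the 13 cells above: the other 155 T cell-like cells stood at 26.4 CPM, against 30.4 CPM in all NK-like cells. The erythroid-like class here includes the plasma cell-like cells, with summed B cell markers of 4825 to 9008 CPM. Bach2 stood at 969 ± 125 CPM in B cell-like cells, above the 523 ± 71 of T cell-like and the 443 ± 36 of NK-like cells, and the last 2 overlapped. Foxo1 followed that order, with 211 ± 26 CPM in B cell-like, 143 ± 17 in T cell-like and 105 ± 9 in NK-like cells. Tox was highest in ILC1-like cells (706 ± 54 CPM), followed by T cell-like (437 ± 17) and NK-like cells (350 ± 24), and its mean was at most 70.7 CPM in the progenitor-like, B cell-like, cDC-like and erythroid-like classes.

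**Figure D5:**
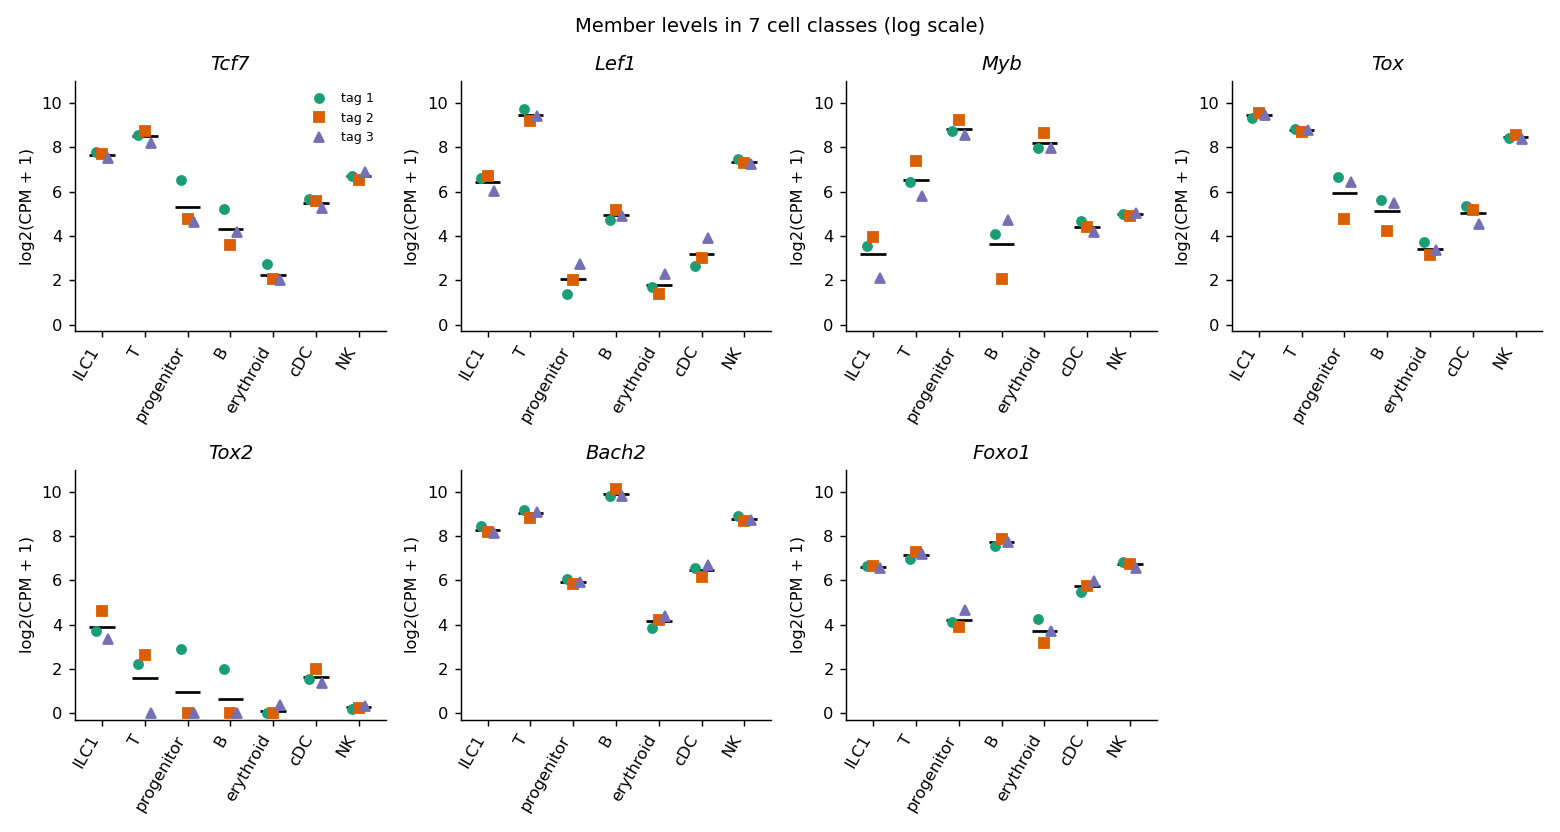
Level of each member as log2(CPM + 1) (vertical axis) in 7 cell classes (horizontal axis); symbols are the 3 lipid tags and bars their mean. Lef1 and Tcf7 are highest in T cell-like cells, Bach2 and Foxo1 in B cell-like cells, Tox in ILC1-like cells, and Myb in progenitor-like and erythroid-like cells.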

How the data were processed

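Deposited UMI counts by gene and barcode were used. Per the file headers they were written by Cell Ranger 7.0.0; Seurat and mm10 are named per the submitters' processing notes. The deposited tag counts were split at 1 threshold per lipid tag, and barcodes with several tags (3567) or none (479) were left out as doublets or unassigned. Doublets within a tag cannot be seen this way and were estimated at 15.3% of the single-tag cells. Cells were clustered (scanpy 1.11.5, Leiden resolution 1.0, 30 components) without members and partner genes, and named from marker lists. The rule that keeps a cluster unnamed when 2 markers of another type lead it was set after the clusters were seen. The classes by Cd27, Itgam, Cd3d, Cd3g and Tcf7 used cells thinned to 2500 UMIs, and most rest on a single UMI (81.4% of Cd27-only and 66.8% of Itgam-only cells). Unthinned counts were summed per class and tag and tested with edgeR 4.0.16 (quasi-likelihood, TMM, tag as a block, Benjamini-Hochberg adjustment over all genes tested, 0.05). The block is used because both classes of a comparison come from the same tags. Alternatives covered DESeq2 1.42.0, scaling, filtering, the block, each tag left out, gates and clusterings. Members and lists were chosen with earlier results of these data known. Named genes are all members, up to 4 called genes with the largest change per list and comparison, and the 10 genes most like Tcf7. The edgeR fits were tested on simulated data; the co-detection ratios, which carry no test, were not.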

Additional observations from a re-analysis of the deposited data

How the results depend on the processing

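Counts of members called moved by over 1.5 times as follows. In Cd27-only over Itgam-only cells, 1 fell with all clusters scored NK and 5 rose with another random thinning, against 0 and 3. In double-positive over Itgam-only cells, where 1 rose, 0 rose with DESeq2 (which gave Tcf7 no adjusted p) or a gate of at least 2 UMIs, 3 with unthinned classes, and 2 without the deepest 5% of cells or without T or B marker UMIs. In Cd27-only over double-positive cells, where 2 rose, 1 rose with DESeq2 and 0 with the 2-UMI gate, where Tcf7 turned to -0.38 with 15 double-positive cells. In cycling cells, where 1 rose, 0 rose with all clusters scored NK, 2 with unthinned classes, another thinning or without the deepest 5%, and 3 without T or B marker UMIs or without the cluster led by Cox6a2. In Cd3d or Cd3g positive cells, where 2 fell, 1 fell with DESeq2, another thinning or no replicate block, and 0 within NK-like clusters. With 1 tag left out, the members that rose ranged from 0 to 1 in double-positive over Itgam-only, 1 to 3 in Cd27-only over double-positive, 1 to 2 in cycling and 3 to 6 in T cell-like cells, and those that fell from 1 to 2 in Cd3d or Cd3g positive cells. Myb in T cell-like cells turned to -0.046 at resolution 1.5 and -0.028 with the members among the clustering genes. The causes were not tested. The other thinning, the Cox6a2 cluster, the shallow cluster and the single ILC1-like clusters were chosen after seeing the data. Counts over all genes moved too. In Cd27-only over Itgam-only cells 1323 genes were called, against 394 with DESeq2, 690 with no replicate block, 880 without tag 3, 2218 unthinned and 610 with the 2-UMI gate. In double-positive over Itgam-only cells 298 were called, against 93 with DESeq2, 72 with no replicate block, 46 without tag 1, 158 without tag 2, 947 unthinned and 5 with the 2-UMI gate. In Cd27-only over double-positive cells 248 were called, against 121, 141, 642 and 1 with DESeq2, no replicate block, unthinned classes and the 2-UMI gate, 390 with all clusters scored NK, 155 without cycling UMIs and 42 with another thinning. By Tcf7, 580 were called, against 242 with DESeq2, 127 with no replicate block, 292 without tag 2, 919 with all clusters scored NK, 2083 unthinned and 335 without the Cox6a2 cluster. DESeq2 called 2484 against 3757 in cycling, 688 against 1269 in Cd3d or Cd3g positive and 2094 against 3289 in ILC1-like cells. In Cd3d or Cd3g positive cells 2128 were called unthinned and 263 within NK-like clusters. In ILC1-like cells 2149 were called in the smaller cluster and 2163 with the members among the clustering genes, where the larger cluster stayed unnamed and the class held 85 cells against 524, and in T cell-like cells 1269 without tag 3, against 2313.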

Other observations

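A cluster of 622 NK-like cells stood apart by depth, with a median of 1467 UMIs against 3838.5 UMIs in all NK-like cells. Its Bach2 stood at 1182 CPM, Lef1 at 366 CPM, Foxo1 at 268 CPM and Tox at 822 CPM, against 441, 162, 106 and 353 CPM in all NK-like cells. Tcf7 stood at 112 CPM there and at 102 CPM in all NK-like cells. Of its cells 120 reached 2500 UMIs. Its part in the comparisons with NK-like cells was tested by leaving it out, which changed no call of a member.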
